A study of Rattus norvegicus with 16 samples.

Results

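Hormones that leave islet cells through the regulated secretory granule are made as larger precursors, and the genes described here encode proteins that cut, trim and package them. The 10 genes were Pcsk1, Pcsk2, Cpe, Pam, Chga, Chgb, Scg2, Scg5, Ptprn and Ptprn2, and every array probe set annotated with 1 of these symbols was taken. Of these genes, 9 had a probe set, out of 10412 genes named on the array, and Pcsk1 was not analysed here because the annotation used gave it no probe set. Together they had 11 of the 15923 probe sets: 3 for Pam and 1 for each of the others.

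RNA came from isolated rat pancreatic islets in a 2 by 2 design of virus and compound. The 4 groups were the adenovirus carrying PPARγ followed by GW347845 (n = 4), the PPARγ adenovirus followed by vehicle (n = 4), the null adenovirus followed by GW347845 (n = 3) and the null adenovirus followed by vehicle (n = 3). All islets, controls included, had therefore carried an adenovirus (32 h, 50 particles for each cell) before 16 h with GW347845 at 200 nM or with vehicle, which was DMSO at 0.004%. PPARγ is a nuclear receptor and GW347845 is an agonist of it, called the compound below. The labels name neither the islet cell types that took up virus nor the strain and age of the rats, and they leave unstated whether replicates came from separate islet preparations, so p-values measure the spread between these arrays, which may be technical.

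In the granule, the proprotein convertases encoded by Pcsk1 and Pcsk2 cut prohormones at pairs of basic residues, carboxypeptidase E (Cpe) removes the basic residues left at the new ends, and peptidylglycine alpha-amidating monooxygenase (Pam) amidates peptides that end in glycine. Scg5 encodes the chaperone that the Pcsk2 convertase needs to mature. The granins (Chga, Chgb and Scg2) are acidic proteins that condense with hormone in the granule core, and Ptprn and Ptprn2 encode transmembrane phosphatase-like proteins of the granule membrane that are autoantigens in human autoimmune diabetes.

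Values are array intensities on a linear scale, scaled by the authors to a trimmed mean of 150.0 on each array, with medians between 56.4 and 67.5 and no detection calls. The 2 columns labelled null virus replicate 2 held identical values in all 15923 probe sets and were left out, which left 14 arrays. The virus label was borne out by Pparg, which read 4593 to 5966 with PPARγ virus and compound and 4939 to 6199 with PPARγ virus and vehicle, against 25.6 to 51.4 with null virus and compound and 27.7 to 39.1 with null virus and vehicle. Islet identity was borne out by Ins1, at 4627 to 7093 over all arrays. Of the exocrine genes, Prss2 and Cpa1 read at most 2.8 and 16.2, while Cela1 reached 351, Prss1 152 and Ctrb1 125 on single arrays. Of the leukocyte genes, Ptprc read 12.2 to 29.2 and Lyz2 102 to 362. The ratio of 3′ to 5′ probe sets, a sign of RNA quality, spanned 8.36 to 18.9 for Gapdh and 7.58 to 14.9 for beta-actin. The highest Gapdh ratio was that of null virus compound replicate 3, whose beta-actin ratio was 14.5. The next highest Gapdh ratio was 12.6, in PPARγ virus vehicle replicate 1. In RNA from whole islets, fewer cells of a type and less RNA per cell cannot be told apart.

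No member changed past the test in any of the 6 contrasts of the design. The test was limma's moderated test on log2(intensity + 4.6), with Benjamini-Hochberg adjustment over all 10078 probe sets tested and a threshold of 0.05. Testing required an intensity above 39.3 in at least 4 arrays; 9 of the 11 member probe sets passed, 1 for each gene. The other 2, both for Pam, stayed dim in every group, at 3.5 to 23.5 and 0.8 to 12.4. Under the PPARγ virus the members shared a pattern across arrays by replicate number, with the replicate 2 arrays lowest in each group. Under the null virus the order of the replicates differed between members. Values below are listed by replicate number, 1 to 4 for the PPARγ virus and 1, 3 and 4 for the null virus.

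Among the processing enzymes, Pcsk2 (probe set 1387155_at) read 1259, 394, 1072 and 859 with PPARγ virus and compound, 1133, 699, 827 and 927 with PPARγ virus and vehicle, 719.5, 920.2 and 969 with null virus and compound, and 1039, 912 and 1209 with null virus and vehicle. The PPARγ virus compound replicate 2 array was far below the others, and all 4 groups overlapped. The group means were 896 ± 373 with PPARγ virus and compound, 896 ± 183 with PPARγ virus and vehicle, 869.6 ± 132 with null virus and compound, and 1053 ± 149 with null virus and vehicle (SD, n = 4, 4, 3 and 3 here and below). With the PPARγ virus and compound together, against null virus and vehicle, the fitted log2 change was -0.35 ± 0.30 (SE), with a 95% interval of -0.98 to 0.29 and an adjusted p of 0.851.

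Scg5 (1367992_at), whose product chaperones that convertase, read 2390.4, 1692, 2821 and 2399.7 with PPARγ virus and compound, 2241, 1791, 2599.9 and 2259.8 with PPARγ virus and vehicle, 2233, 2327 and 2287 with null virus and compound, and 2191, 2245 and 2273 with null virus and vehicle. The replicate 2 arrays were lowest and the replicate 3 arrays highest within each PPARγ virus group, while the 6 null virus arrays lay within a narrow band inside the PPARγ virus range. Its SD in log2 was 0.31 with PPARγ virus and compound and 0.22 with PPARγ virus and vehicle, against 0.03 in each null virus group. The combined log2 change was 0.03 ± 0.14 (95% interval -0.28 to 0.34, adjusted p = 0.979 by limma).

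Cpe (1386921_at), the exopeptidase that trims the cut ends, read 3781, 3053, 3935 and 3475 with PPARγ virus and compound, 4092, 3387, 3883 and 3496 with PPARγ virus and vehicle, 3816, 3758.5 and 3792 with null virus and compound, and 3612, 3681 and 4245 with null virus and vehicle. All groups overlapped, and the null virus compound arrays were the closest together. Its combined log2 change of -0.11 ± 0.09 had a 95% interval that corresponds to -19.6% to 6.27% on the offset scale, with an adjusted p of 0.837 by limma.

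The bright Pam probe set (1367687_a_at), for the amidating enzyme, read 2275, 1164.5, 2542 and 1498 with PPARγ virus and compound, 2242, 1238, 2191 and 1817 with PPARγ virus and vehicle, 1838.5, 1890 and 2310 with null virus and compound, and 1847, 1890.5 and 2480.5 with null virus and vehicle. Replicates 2 and 4 were the low arrays in both PPARγ virus groups, and replicates 1 and 3 the high ones. The combined log2 change was -0.20 ± 0.25 (95% interval -0.74 to 0.33, adjusted p = 0.905 by limma).

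Of the granins, Chga (1387235_at, chromogranin A) read 1037, 339, 971 and 526.2 with PPARγ virus and compound, 983, 429.6, 940.3 and 588.5 with PPARγ virus and vehicle, 833, 865 and 959 with null virus and compound, and 969, 659 and 1169 with null virus and vehicle. Replicates 2 and 4 with the PPARγ virus were below every null virus array, whereas replicates 1 and 3 lay among them. The highest array was 3.45 times the lowest, the widest range of the 9 genes. The group means were 718 ± 339.7 with PPARγ virus and compound, 735 ± 269.7 with PPARγ virus and vehicle, 886 ± 65.5 with null virus and compound, and 932 ± 257 with null virus and vehicle (SD), and the combined log2 change of -0.47 ± 0.36 had an interval of -1.24 to 0.29, or -57.7% to 22.5%, with an adjusted p of 0.814 by limma. Without both PPARγ virus replicate 2 arrays, an alternative added after seeing the data, that change was -0.16.

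Chgb (1368034_at, chromogranin B) read 3834, 2331, 3898 and 2557 with PPARγ virus and compound, 3921, 2455, 3848 and 2590.1 with PPARγ virus and vehicle, 3709, 2885 and 3523 with null virus and compound, and 3471, 3337 and 3942 with null virus and vehicle. The same split of replicates 2 and 4 from replicates 1 and 3 appeared in both PPARγ virus groups, and the groups overlapped. The combined log2 change was -0.22 ± 0.20 (95% interval -0.65 to 0.21, adjusted p = 0.862 by limma).

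Scg2 (1368044_at, secretogranin II, the precursor of secretoneurin) varied least of the 9 genes, its highest array being 1.31 times its lowest. It read 2224, 1923.5, 2218 and 2058 with PPARγ virus and compound, 2522, 2066, 2449 and 2200.1 with PPARγ virus and vehicle, 2499, 2252 and 2361 with null virus and compound, and 2251, 2234 and 2157 with null virus and vehicle. Every compound array of the PPARγ virus lay below every compound array of the null virus, and every compound array of the null virus lay above every vehicle array of the null virus. The second separation was a near tie: null virus compound replicate 3 read 2251.7 and null virus vehicle replicate 1 read 2250.7. The group means were 2106 ± 144 with PPARγ virus and compound, 2309 ± 213 with PPARγ virus and vehicle, 2370.4 ± 124 with null virus and compound, and 2214 ± 49.9 with null virus and vehicle (SD). The log2 change with the PPARγ virus in compound was -0.17 ± 0.08 (95% interval -0.35 to 0.01, unadjusted p = 0.0605, adjusted p = 0.580 by limma), and 5.26% of all tested probe sets were lower with no overlap in that comparison. The log2 change with the compound under the null virus was 0.10 ± 0.09 (95% interval -0.10 to 0.29, adjusted p = 1.00 by limma), where 2.08% of probe sets were higher with no overlap.

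Of the phosphatase-like membrane proteins, Ptprn (1370362_at) read 539, 236, 440.2 and 305 with PPARγ virus and compound, 459, 298, 411 and 308 with PPARγ virus and vehicle, 342, 306 and 337 with null virus and compound, and 435, 316 and 411 with null virus and vehicle. Replicate 2 was lowest and replicate 1 highest in each PPARγ virus group, and the groups overlapped. The log2 change with the PPARγ virus in compound was 0.14 ± 0.24 (95% interval -0.37 to 0.65, adjusted p = 0.936 by limma).

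Ptprn2 (1370182_at) read 652, 382, 765.5 and 569 with PPARγ virus and compound, 623, 441, 904 and 517 with PPARγ virus and vehicle, 478, 543 and 581 with null virus and compound, and 559.8, 604 and 606 with null virus and vehicle. Replicate 3 was the highest array in both PPARγ virus groups and replicate 2 the lowest. Its log2 change with the PPARγ virus in compound was 0.11 ± 0.23 (95% interval -0.38 to 0.60, adjusted p = 0.950 by limma).

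**Figure D1:**
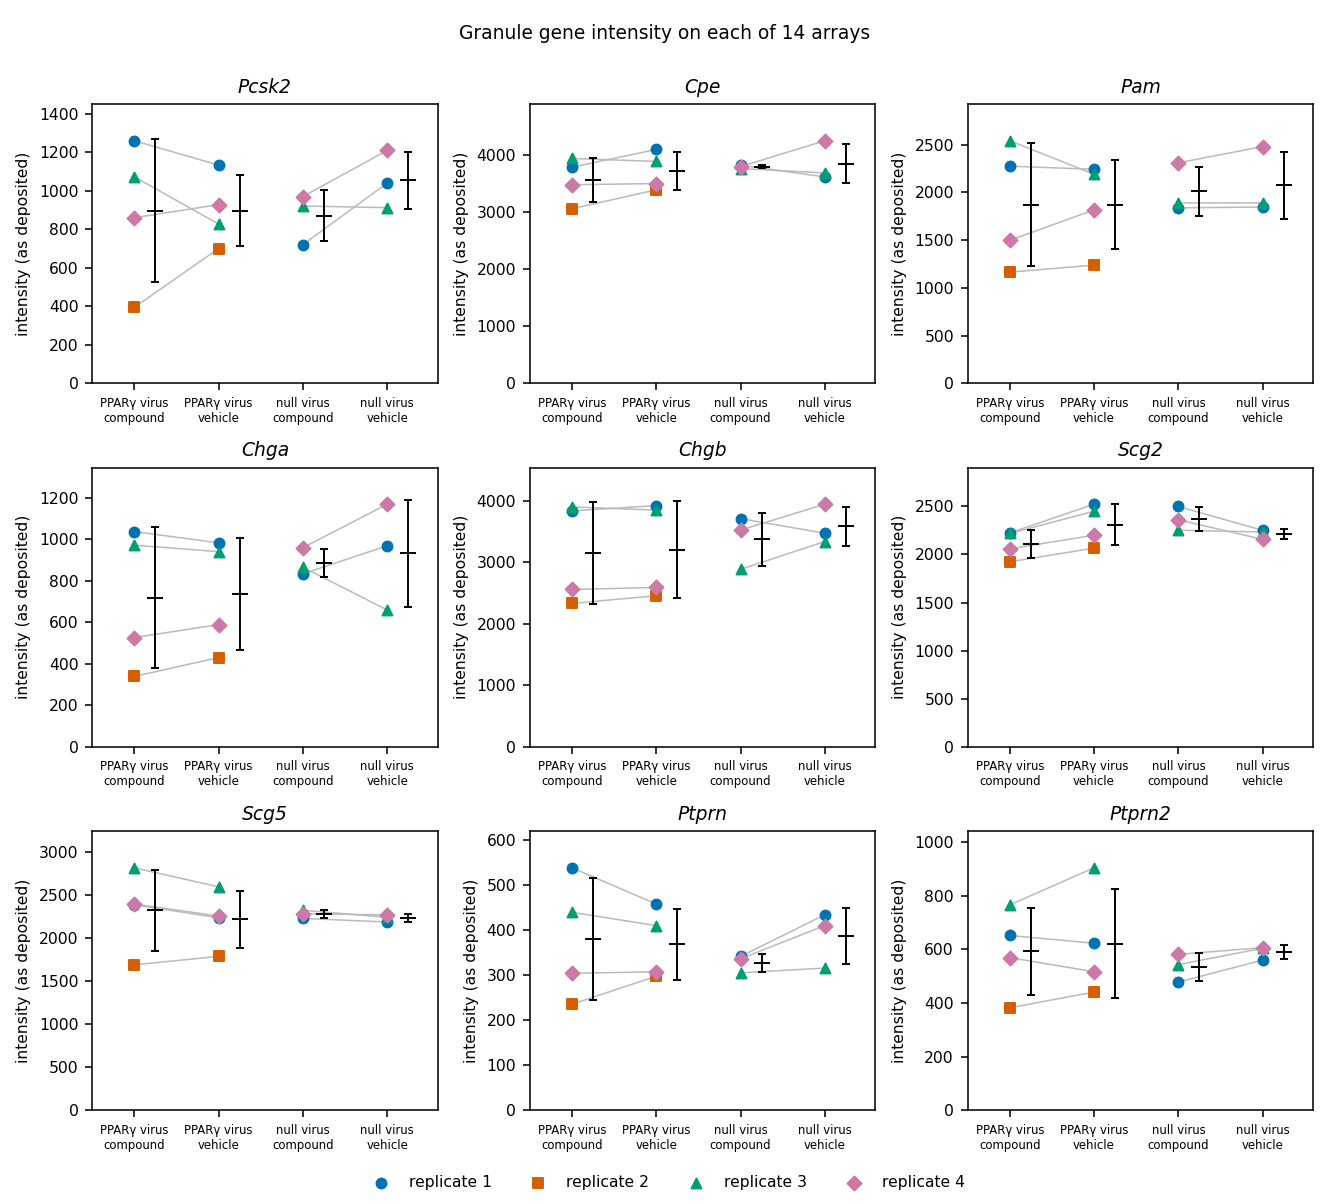
Deposited intensity (linear, from 0) of the 9 measured genes on each of the 14 arrays by group; colour and shape give the replicate number, grey lines join arrays of the same virus and number, and black marks give the group mean ± SD. All 9 genes have their lowest value in the orange square of PPARγ virus with compound.

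Ordered by group mean, no gene had neighbouring groups that failed to overlap, in 27 such neighbouring pairs. Over all 54 pairs of groups, only the 2 Scg2 pairs described above did not overlap. Of all tested probe sets, 9.82% had no overlap between the viruses in compound and 4.61% between compound and vehicle under the null virus, in either direction. In the other 3 comparisons all 9 genes overlapped, and the share of all tested probe sets without overlap was 4.62% for the virus in vehicle, 1.8% for the compound under the PPARγ virus and 8.95% for the combined comparison.

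The promoters of Ptprn, Scg2 and Scg5 are shown because these genes held the most matches to the cyclic AMP response element letters among the 8 members with an entry. The sequences are from RefSeq (GRCr8), on the minus strand, 5′ to 3′, with 250 bases before the annotated start and 30 after it, and capitals mark TGACGTCA or its first 5 letters, TGACG, on either strand.
Ptprn, chr9:84204794-84205073: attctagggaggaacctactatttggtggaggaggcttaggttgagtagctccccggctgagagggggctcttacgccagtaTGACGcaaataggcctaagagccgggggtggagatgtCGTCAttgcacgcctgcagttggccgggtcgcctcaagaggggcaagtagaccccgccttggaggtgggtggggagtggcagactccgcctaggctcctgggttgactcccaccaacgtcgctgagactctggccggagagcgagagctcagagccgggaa
Scg2, chr9:88256837-88257116: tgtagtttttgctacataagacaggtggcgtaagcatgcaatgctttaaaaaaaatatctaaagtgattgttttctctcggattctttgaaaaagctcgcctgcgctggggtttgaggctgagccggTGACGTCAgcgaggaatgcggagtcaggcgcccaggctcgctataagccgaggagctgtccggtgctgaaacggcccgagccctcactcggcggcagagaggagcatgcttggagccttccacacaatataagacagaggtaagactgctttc
Scg5, chr3:121042766-121043045: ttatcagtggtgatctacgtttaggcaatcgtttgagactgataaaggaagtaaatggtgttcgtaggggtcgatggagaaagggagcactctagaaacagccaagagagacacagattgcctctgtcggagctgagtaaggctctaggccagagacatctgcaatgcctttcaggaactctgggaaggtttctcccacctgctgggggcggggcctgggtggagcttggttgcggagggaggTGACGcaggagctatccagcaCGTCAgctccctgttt

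Searched on both strands over 250 bases before to 50 after the start, TGACGTCA occurred in 1 of the 8 promoters, that of Scg2, starting at position -123, against 1.83% of 33469 rat promoters. TGACG, which lies inside that motif on both strands, occurred in 6 of 8, against 21.2% of all. The other matches began at -173 in Cpe, -105 in Pam, -57 in Pcsk2, -168 and -131 in Ptprn, and -7 and 15 in Scg5. AGGTCA repeated after any 1 base, a spaced repeat of the kind PPARγ binds with its partner RXR, was in 0 of 8 windows and in 0.0538% of all. A match in letters is a description and not a binding site.

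The first comparison asked what the PPARγ virus did without added agonist. In vehicle, 0 of the 9 member probe sets passed, against 0.0397% of all tested probe sets, and 0 had an unadjusted p below 0.05, against 4.43%. The log2 change was above 0 for 2 members and below 0 for 7, with a median of -0.08 against 1.48e-04 over all tested probe sets. The largest was Chga at -0.38 ± 0.36 (SE). Without the PPARγ virus vehicle replicate 2 array the median was 0.01.

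With the compound present in both arms, the PPARγ virus again gave 0 of 9 calls by limma, against 0.705% of all tested probe sets, and 0 at an unadjusted p below 0.05, against 9.19%. The members' log2 changes ran from -0.44 for Chga to 0.14 for Ptprn, with 3 above 0 and 6 below, and the median was -0.10 against -0.03 over all tested probe sets. Scg2 had the smallest adjusted p of the 9, given above. Without the PPARγ virus compound replicate 2 array the median was 0.04.

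The compound itself gave 0 of 9 calls under the PPARγ virus, against 0.0595% of all tested probe sets, and 0 of 9 under the null virus, against 0%; by limma, 0 members had an unadjusted p below 0.05 under either virus, against 2.93% and 0.943% of all tested probe sets. The members' median log2 change was -0.06 under the PPARγ virus, against -0.02 over all tested probe sets, and -0.04 under the null virus, against 4.51e-05. Under the PPARγ virus the median was 0.17 without compound replicate 2, 0.01 without compound replicate 4, 0.06 without vehicle replicate 1 and 0.05 without vehicle replicate 3; under the null virus it was 0.04 without vehicle replicate 4.

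The PPARγ virus with compound, set against the null virus with vehicle, gave 0 of 9 calls, against 0.665% of all tested probe sets, and 0 at an unadjusted p below 0.05, against 8.48%. The median was -0.11, against -0.03 over all tested probe sets, with 1 member above 0 and 8 below. It was 2.58e-04 without the PPARγ virus compound replicate 2 array. Without both PPARγ virus replicate 2 arrays, the combined change of Pcsk2 was 0.01, and with the PPARγ virus in compound Ptprn was at 0.34 and Ptprn2 at 0.30, none past the test. The difference between the compound effects under the 2 viruses gave 0 of 9 calls, against 0%, and 0 at an unadjusted p below 0.05, against 1.42%.

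Precision differed between genes. The median half-width of the members' 95% intervals in the combined comparison was 0.49 in log2, against 0.37 over all tested probe sets. Cpe and Scg2 had narrow intervals and Chga, Pcsk2 and Pam wide ones, and a change within these intervals could not be told from 0 with this number of arrays.

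**Figure D2:**
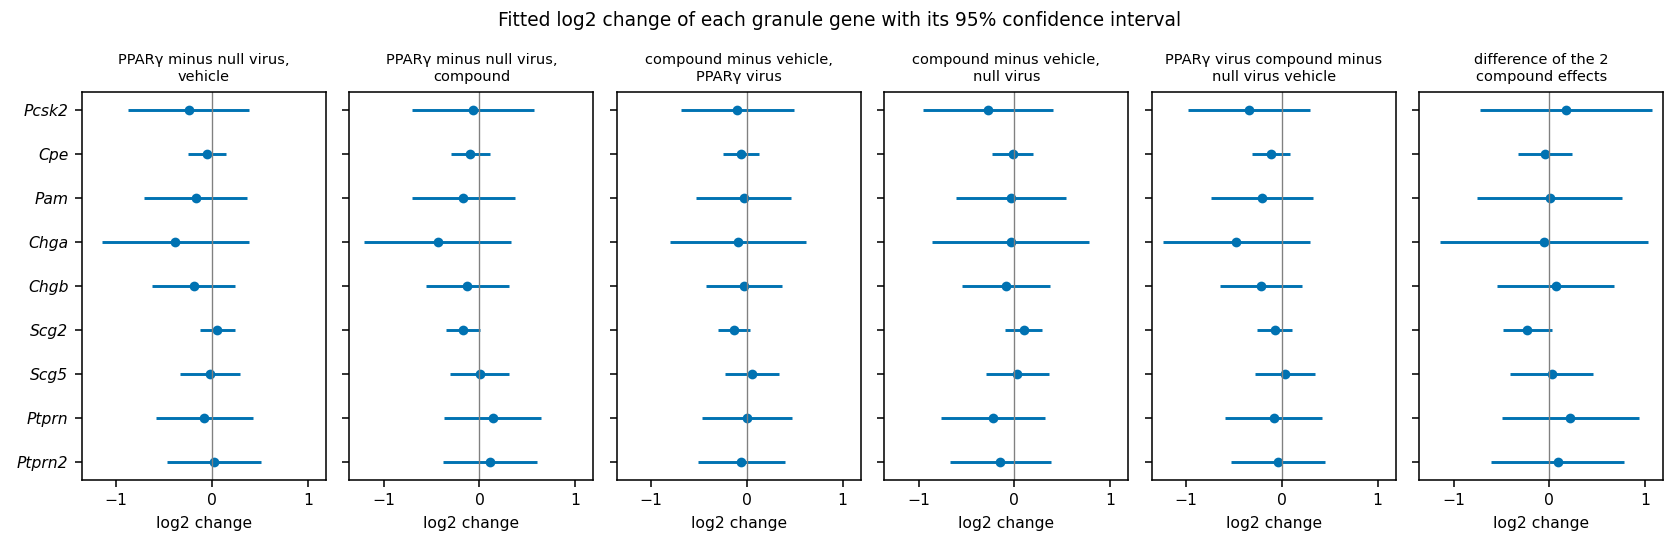
Fitted log2 change (x axis, with 95% confidence interval) of each measured gene in the 6 contrasts. Every interval crosses 0, and those of Cpe, Scg2 and Scg5 are the narrowest.

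Same-numbered arrays of 1 virus deviated together, so the compound was also read within pairs. The log2 difference of compound minus vehicle was below 0 for Scg2 in 4 of 4 PPARγ virus pairs and above 0 in 3 of 3 null virus pairs, and 1.79% of all tested probe sets split the 2 viruses in this way in either direction. The null virus differences were 0.15, 0.01 and 0.13 for replicates 1, 3 and 4, so replicate 3 was close to a tie. The difference between the 2 compound effects was -0.23 ± 0.12 (SE, adjusted p = 1.00 by limma). With the replicate number as a block within each virus it was -0.23 ± 0.08 (adjusted p = 0.753), where 0.0496% of probe sets passed. Under the PPARγ virus alone, the blocked Scg2 change was -0.13 ± 0.05, with a 95% interval of -0.24 to -0.02 and an adjusted p of 0.474, against 0.397% of probe sets called in that fit. No member passed the adjusted threshold with that block under either virus; under the null virus 0% of probe sets did.

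The other genes had no such split. Pam, Ptprn and Ptprn2 were lower with compound in 3 of 3 null virus pairs and mixed under the PPARγ virus. For Pam, null virus pairs 1 and 3 were near ties, at -0.0067 and -3.8e-04. Scg5 was higher with compound in 3 of 4 PPARγ virus pairs and 3 of 3 null virus pairs. In PPARγ virus pair 2 all 9 genes were lower with compound, with a median of -0.15, while 7 of 9 were higher in pair 3. The compound moved 1 of 9 genes the same way in all PPARγ virus pairs, against 18% of all tested probe sets, and 5 of 9 in all null virus pairs, against 22.5%. The null virus count rests in part on near ties, in Pam, in Scg2 (0.01 in pair 3) and in Scg5 (0.009 in pair 4). Such runs of 1 sign within a pair are not independent, because the genes share an array. The block narrowed the intervals: for Chgb under the PPARγ virus to -0.15 to 0.10, and for Scg5 to -0.06 to 0.17.

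**Figure D3:**
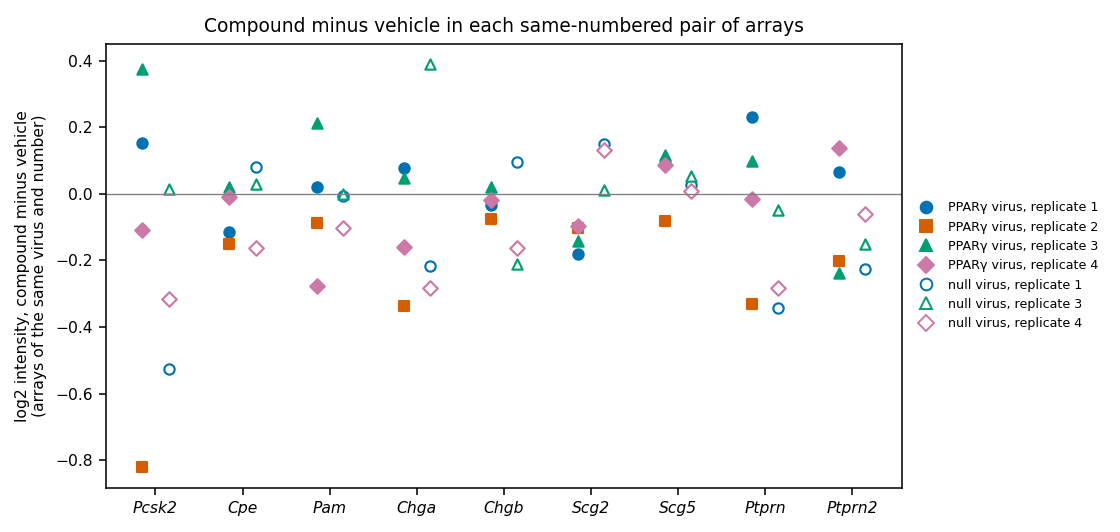
Difference in log2 intensity, compound minus vehicle, for each same-numbered pair of arrays of the same virus (filled: PPARγ virus, 4 pairs; open: null virus, 3 pairs). The filled Scg2 points lie below 0 and the open ones above it, with the open replicate 3 point close to 0. The replicate 2 square of Pcsk2 lies lowest of all.

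The 9 genes varied together across arrays. The 36 pairwise Pearson correlations of log2 intensity over the 14 arrays had a median of 0.73, between 0.46 for Pcsk2 with Scg2 and 0.94 for Pam with Chga. Over the 12 arrays without both PPARγ virus replicate 2 arrays, the median was 0.47, between -0.27 and 0.85. Arrays are shared by all genes, so these are descriptions. Each of the 9 genes was lowest in PPARγ virus compound replicate 2, and 8 of 9 had both PPARγ virus replicate 2 arrays as their 2 lowest; for Scg2, PPARγ virus compound replicate 4 came before the vehicle one.

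The spread within groups was larger than the spread within pairs for all 9 genes. The ratio of the 2 SDs was 4.12 for Scg5, 4.02 for Chgb and 3.32 for Pam, and 1.47 for Pcsk2, against a median of 1.46 over all tested probe sets.

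The low arrays were also low in Gcg, Ppy and Pyy, which encode hormones of islet cells other than beta cells. The summed intensity of the 4 non-beta endocrine genes with a probe set of the 5 listed (Gcg, Sst, Ppy and Pyy) was 8356, 453, 8899 and 2281 with PPARγ virus and compound, and 8451, 942, 9788 and 2401 with PPARγ virus and vehicle. In the null virus arrays the sum was 6143, 5361 and 7412 with compound and 5325, 4569 and 9165 with vehicle. No null virus array was as low as the replicate 2 or replicate 4 arrays of the PPARγ virus groups. Gcg, which encodes glucagon, read 3606, 181, 3911 and 1221 with PPARγ virus and compound and 3788, 421, 4192 and 1231 with PPARγ virus and vehicle, against 2879, 3305 and 3282 with null virus and compound and 2621, 2834 and 3423 with null virus and vehicle. Ppy, for pancreatic polypeptide, was lowest in the replicate 2 arrays too, at 67.6 with PPARγ virus and compound and 133.6 with PPARγ virus and vehicle, against 918 to 3919 over the null virus arrays. Sst, for somatostatin, did not follow in every array: PPARγ virus vehicle replicates 2 and 4 read 272 and 223, inside the null virus range of 172 to 425. None of the 4 hormones was at 0 on any array.

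The 6 measured beta cell genes of the 7 listed, most of whose sum comes from Ins1, Ins2 and Iapp, summed to 12708 to 17808 with PPARγ virus and compound, 13915 to 17110 with PPARγ virus and vehicle, 15768 to 16891 with null virus and compound, and 15188 to 20089 with null virus and vehicle. Within that list Pdx1, a beta cell transcription factor, did not overlap between the viruses, at 208 to 272 with PPARγ virus and compound against 276 to 434 with null virus and compound, and 254 to 281 with PPARγ virus and vehicle against 312.5 to 435 with null virus and vehicle. Its log2 change was -0.58 ± 0.16 in compound (adjusted p = 0.149 by limma) and -0.47 ± 0.16 in vehicle (adjusted p = 0.774).

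Sums over all genes with a probe set in the exocrine, duct, stromal and leukocyte lists overlapped between all 4 groups. Of the 12 exocrine genes summed, 3 were bright enough to be tested. By limma, 1 duct gene rose past the threshold. Krt19, a keratin, read 205 to 296 with PPARγ virus and compound, against 66.5 to 139 with null virus and compound and 72.2 to 141.5 with null virus and vehicle. Its log2 change was 1.36 ± 0.27 with the PPARγ virus in compound (adjusted p = 0.0284 by limma) and 1.30 ± 0.27 combined (adjusted p = 0.0391). With PPARγ virus and vehicle Krt19 read 115 to 210, a log2 change of 0.80 ± 0.27 in vehicle (adjusted p = 0.774 by limma). Krt18, another duct gene, read 968 to 1445 with PPARγ virus and compound and 1012.5 to 1311 with PPARγ virus and vehicle. With the null virus it read 885 to 979 with compound and 869 to 922 with vehicle. Its log2 change with the PPARγ virus was 0.33 ± 0.13 in vehicle and 0.29 ± 0.13 in compound (adjusted p = 0.938 and 0.481 by limma). The combined change of Krt18 did not pass (adjusted p = 0.318 by limma). In the PPARγ virus compound and vehicle replicate 2 arrays, the beta-actin 3′ to 5′ ratio was 14.9 and 13.4 and the Gapdh ratio 9.22 and 8.36, against 7.58 to 14.5 and 8.39 to 18.9 over the other 12 arrays. The part of these markers and ratios in the granule gene values was not tested.

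**Figure D4:**
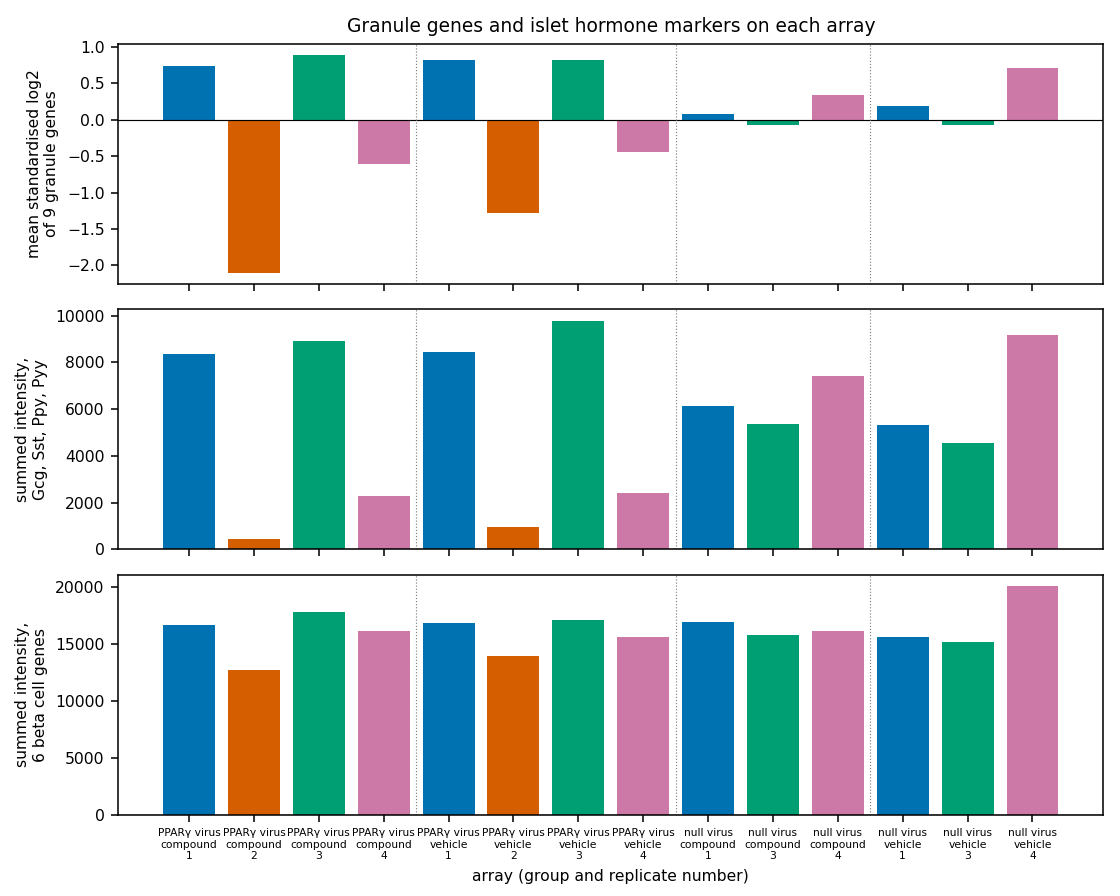
Top: mean standardised log2 intensity of the 9 granule genes per array. Middle: summed intensity of Gcg, Sst, Ppy and Pyy. Bottom: summed intensity of the 6 beta cell genes. The PPARγ virus replicate 2 arrays are lowest in all 3 panels.

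Among 8479 other tested probe sets naming 1 gene, the 5 whose log2 values followed the members' mean most closely over the 14 arrays were Pyy (r = 0.980), Gprasp1 (0.974), Fam110b (0.974), Gnas (0.972) and Sez6l2 (0.971). Over the 12 arrays without the PPARγ virus replicate 2 pair their r values were 0.950, 0.950, 0.924, 0.984 and 0.904. Ppy ranked 9th and Gcg 13th, at r = 0.964 and 0.959. Iapp stood at 0.846, Ins2 at 0.782, Ins1 at 0.758 and Sst at 0.548. Over the 12 arrays these 4 were 0.741, 0.544, 0.415 and 0.614.

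Further genes of the same machinery were read from 3 wider lists. The peptide cargo list includes the hormone genes Ins1 and Sst, so it is not separate from the marker genes above. Of 14 tested processing and maturation genes, 15 granin-like and granule membrane genes and 15 peptide cargo genes, 0 rose and 0 fell by limma in any of the 6 contrasts. At an unadjusted p below 0.05 in the combined comparison there were 1, 0 and 3, against 8.48% of all tested probe sets, and the list medians were -0.03, -0.02 and -0.27, against -0.03 over all tested probe sets. In the processing list the smallest p belonged to Atp6ap1, a subunit of the proton pump that acidifies granules, at 0.29 ± 0.11 (adjusted p = 0.447), followed by the zinc transporter Slc30a5 at 0.27 (adjusted p = 0.643) and the convertase Pcsk4 at 0.26 (adjusted p = 0.723). In the granule membrane list they were the vesicle SNARE Vamp2 at -0.21, the docking factor Cadps2 at 0.22 and Nucb2, the precursor of nesfatin, at 0.17, with adjusted p between 0.794 and 0.886. Pcsk4 and Cadps2 were dim, near the limit of 39.3 used to choose probe sets for testing. Pcsk4 read 35.5 to 50 with the PPARγ virus and 31 to 38.2 with the null virus. It exceeded that limit only on PPARγ virus arrays, so its positive change is not independent of that choice. Cadps2 read 26 to 41.2 with the PPARγ virus and 25.5 to 39.4 with the null virus.

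The cargo peptides with the smallest p were galanin, cholecystokinin and adrenomedullin. Gal had a combined log2 change of -0.63 ± 0.20 (adjusted p = 0.298 by limma), with 65.9, 67.2, 103 and 76.5 in PPARγ virus compound arrays against 107, 115 and 146 in null virus vehicle arrays. Cck had -0.74 ± 0.26 (adjusted p = 0.351 by limma), with 158, 73.7, 119 and 76.8 in PPARγ virus compound arrays against 220.4, 116.5 and 199.9 in null virus vehicle arrays. Adm had 0.88 ± 0.34 (adjusted p = 0.454 by limma), with 368, 314, 555 and 261 in PPARγ virus compound arrays against 256, 221 and 127 in null virus vehicle arrays.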

How the data were processed

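RNA of rat islets was hybridised to expression arrays. The deposited values are intensity, 1 per probe set, which the authors had scaled per array; neither the summarisation software nor the build is given in the sources used here. They were used as deposited, on 14 of 16 columns, since 2 columns with conflicting labels were identical. An array gives no molecule count, so the number of arrays limits the precision. Group means were fitted to log2(intensity + 4.6) with limma 3.58.1 in R 4.3.3 (trended empirical Bayes), where 4.6 and the limit of 39.3 are the 10th and 40th percentiles of the values. The fit was checked on simulated, independent arrays with known changes larger than any fitted for the members. That check does not cover arrays that deviate together or changes as small as the members'. Tables and figures were made in Python 3.11.15 with matplotlib 3.10.9.

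The members, gene lists and tests were chosen with earlier results of these data known. Every member is named, with the 3 genes of smallest p per wider list in the combined comparison, any gene of those lists that passed, and the 5 probe sets most like the members. Symbols came from the platform annotation, updated through a current rat gene table. Wider genes were read by their brightest tested probe set. Same-numbered arrays of 1 virus deviated together (r of deviations from group means 0.445 to 0.475 for the null virus and 0.574 to 0.702 for the PPARγ virus), while across viruses replicate 1 correlated (0.30 to 0.43) and replicates 3 and 4 did so in part or not at all (-0.14 to 0.13). Only within a virus was the correlation above 0.1 for every replicate number, so the numbers were taken to pair compound with vehicle there. Alternatives covered the pseudocount, the filter, normalization, the spread, the identical columns, the groups in the fit, the block and each array left out.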

Additional observations from a re-analysis of the deposited data

Results flagged for a closer look

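The compound effect on Scg2 differed in direction between the viruses on every pair of arrays: below 0 in 4 of 4 PPARγ virus pairs and above 0 in 3 of 3 null virus pairs, a difference of -0.23 in log2. Of all tested probe sets, 1.79% showed such a split. In null virus pair 3 the sign of Scg2 rested on a log2 difference of only 0.01. The limma interaction had an adjusted p of 1.00 without the replicate block and 0.753 with it. An exact permutation test of the pair differences between the viruses, over 35 arrangements, gave p = 0.0571 with both tails counted. That is the smallest p this version of the test can give for 4 against 3 pairs. Scg2 was picked because its pairs had opposite signs under the 2 viruses. That choice fixed this p in advance, so it gives no support for a difference. Dixon's ratio (critical value 0.829) flagged 0 of the 22 groups of 4 arrays checked, where chance alone would mark about 1 in 20. Only PPARγ virus groups have 4 arrays, and with so few arrays only an extreme gap passes this check. It does not show that no array stood apart: all 9 genes were lowest in PPARγ virus compound replicate 2.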

How the results depend on the processing

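Under 28 alternative fits, 14 of them leaving out 1 array, 0 of 1476 member values passed the adjusted threshold, and 114 uncalled values had the other sign. The lowest adjusted p was 0.381, for Scg5 in the combined comparison with a replicate block over all groups. Leaving out 1 array, the members' median ran from -0.22 to 0.01 for the virus in vehicle, -0.20 to 0.04 for the virus in compound, -0.18 to 0.17 for the compound under the PPARγ virus, -0.13 to 0.04 under the null virus, -0.27 to 2.58e-04 combined, and -0.08 to 0.21 for the interaction. Without both PPARγ virus replicate 2 arrays, an alternative added after seeing the data, 0 members passed. The replicate block within each virus changed no member's call; it cannot be fitted for the virus and combined contrasts, and the fit to only the groups compared gives no interaction. Over all probe sets, calls under the PPARγ virus for the compound were 40 with that block against 6 without, and 5 against 0 for the interaction. A block over all groups gave 34 against 4, 211 against 71, 177 against 67, 14 against 6 and 3 against 0 (virus in vehicle, virus in compound, combined, compound under PPARγ virus, interaction), and called Adm for the virus in compound at 1.33 (adjusted p = 0.0167). Fits to the compared groups alone gave 1 for the virus in vehicle and 2 for the compound under the PPARγ virus; leaving out 1 array gave 3 to 7, 31 to 71, 39 to 71 and 2 to 7 for the first, second, combined and PPARγ virus compound contrasts; without both replicate 2 arrays the last had 3, and with median centring 9. The cause was not tested.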
